A study of Mus musculus with 12 samples.

Results

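In mouse embryonic stem cells, 155 genes had a higher mean level after 6 h of 4OHT but at most a slightly higher one when 4OHT was added to cells that already carried the proteasome inhibitor MG132. Each array value is a level, the log2 of a probe's processed intensity minus the log2 of that array's 75th percentile. A gene entered the set when its probe was well above background on all 3 arrays with 4OHT, its mean level with 4OHT was at least 1.5 above that of untreated cells, and its mean level with MG132 and 4OHT was at most 0.5 above that with MG132 alone. Of 15981 genes with a symbol, 613 met the first threshold, and 155 of them (25.3%) also met the second. The other 458 genes are the ones they are set against below. The 2 differences that chose the set are therefore given as descriptions and carry no test.

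The series holds 12 one-colour arrays in 4 groups of 3, which its design text calls biological replicates. One group had 1 µM MG132 for 30 min and then MG132 together with 250 nM 4OHT for 6 h. A second had the same MG132 schedule without 4OHT, another had 250 nM 4OHT for 6 h, and the last was untreated and titled as 0 h. All cells grew in medium with LIF and 250 nM PD173074, which inhibits receptors of fibroblast growth factors. The 4 groups include neither vehicle alone nor untreated cells at 6 h, so in a comparison with untreated cells the compound and the time cannot be told apart. The labels name neither the line of stem cells nor the protein on which 4OHT acts.

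4OHT, the active form of tamoxifen, is used in cell culture to activate proteins that carry a mutated hormone-binding domain of the oestrogen receptor, and the title of the series concerns transcription that depends on the kinase ERK and on the proteasome. ERK is the last kinase of the cascade that runs from growth factor receptors through RAS, RAF and MEK, and in stem cells its activity drives immediate-early genes and the exit from naive pluripotency. The proteasome degrades ubiquitin-tagged proteins, among them many short-lived transcription factors and repressors. MG132 blocks that degradation and raises heat shock and other stress genes as well.

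All 15 general pluripotency genes measured, Pou5f1 and Sox2 among them, were well above background on every array of every group. Between 49.4% (4OHT replicate 2) and 63.2% (MG132 replicate 3) of probes were well above background on an array. The 75th percentile of intensity ranged between 207 (4OHT replicate 1) and 320 units (untreated replicate 1). Both lowest values thus belong to arrays of the group whose detection and level chose the set. Arrays of a group correlated at 0.976 to 0.982 across genes with 4OHT and at 0.987 to 0.996 in the other groups. The standard deviation of an array's values around its group mean was 0.39 to 0.45 with 4OHT, against 0.19 to 0.29 in the other groups, so the arrays that raise a gene into this set were also the least alike. The untreated arrays, the 4OHT arrays and MG132 replicates 1 and 2 shared a slide, while MG132 replicate 3 and all arrays with both compounds lay on the other.

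The promoters of the set were compared with all promoters because its members were high with the same compound. RefSeq (GRCm38.p6) gave windows of 300 bases, with 250 before and 50 after the start, for 107 of the 155 members (147 windows, against 32851 over all genes). The windows below show one member that was not called with MG132 alone (Pik3cd), 3 that it raised (Slco2b1, Arap2, Hic1) and one that it lowered (Gbx2). Capitals mark matches on either strand to GGAAGT (the core bound by ETS factors), TGANTCA (AP-1), GCGNGGGCG (EGR factors) or CACGTG (the E-box).
Slco2b1, chr7:99711291-99711590, minus strand: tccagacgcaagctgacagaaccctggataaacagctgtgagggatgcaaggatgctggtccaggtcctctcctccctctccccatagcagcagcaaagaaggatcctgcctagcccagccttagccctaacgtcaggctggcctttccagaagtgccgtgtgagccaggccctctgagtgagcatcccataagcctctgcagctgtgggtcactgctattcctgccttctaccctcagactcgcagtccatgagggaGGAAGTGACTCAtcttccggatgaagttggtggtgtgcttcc
Arap2, chr5:62766128-62766427, minus strand: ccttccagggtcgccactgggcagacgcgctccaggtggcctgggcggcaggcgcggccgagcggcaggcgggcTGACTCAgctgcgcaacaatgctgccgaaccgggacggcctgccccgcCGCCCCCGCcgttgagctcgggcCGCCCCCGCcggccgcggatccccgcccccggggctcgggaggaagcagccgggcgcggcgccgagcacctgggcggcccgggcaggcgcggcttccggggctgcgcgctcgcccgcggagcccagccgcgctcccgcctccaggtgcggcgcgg
Hic1, chr11:75170206-75170505, minus strand: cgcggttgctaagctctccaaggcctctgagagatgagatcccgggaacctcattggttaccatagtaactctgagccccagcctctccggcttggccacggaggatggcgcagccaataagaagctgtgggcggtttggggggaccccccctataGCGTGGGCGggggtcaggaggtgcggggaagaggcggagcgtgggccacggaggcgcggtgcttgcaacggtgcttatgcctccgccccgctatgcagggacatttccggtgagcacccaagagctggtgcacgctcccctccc
Pik3cd, chr4:149698659-149698958, minus strand: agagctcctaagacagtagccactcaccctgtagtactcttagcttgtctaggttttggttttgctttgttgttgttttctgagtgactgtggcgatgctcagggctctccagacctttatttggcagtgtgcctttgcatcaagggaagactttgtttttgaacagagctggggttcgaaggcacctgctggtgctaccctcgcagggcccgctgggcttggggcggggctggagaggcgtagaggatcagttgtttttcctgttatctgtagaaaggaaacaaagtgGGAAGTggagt
Gbx2, chr1:89931127-89931426, minus strand: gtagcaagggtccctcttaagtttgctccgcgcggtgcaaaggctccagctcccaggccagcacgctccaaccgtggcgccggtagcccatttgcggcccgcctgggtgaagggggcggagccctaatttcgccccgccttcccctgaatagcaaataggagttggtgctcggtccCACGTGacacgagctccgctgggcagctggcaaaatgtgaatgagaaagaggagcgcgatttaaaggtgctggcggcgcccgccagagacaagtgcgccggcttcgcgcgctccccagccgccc
In the Slco2b1 window the ETS and AP-1 matches share a base. Some genes have several windows, and those of Slco2b1, Pik3cd and Hic1 that are not printed hold no match to the marked motifs.

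The share of windows with a motif was mostly near that of all promoters. GGAAGT was found in 22.4% of member windows and 23.8% of all windows, CACGTG in 6.80% and 7.15%, the CRE motif TGACGTCA in 2.04% and 1.79%, and the CArG box of SRF in 1.36% and 1.63%. TGANTCA lay in 4.76% of member windows against 7.81% of all, and TATAAA in 10.2% against 13.6%. GCGNGGGCG lay in 8.84% against 5.55%, and the GC box GGGCGG in 55.1% against 35.7%. Member windows were also richer in G and C (median 60% against 52.7%). Whether the shares of GCGNGGGCG and GGGCGG followed from that was not tested. Among the 42 windows of members raised by MG132 alone, AP-1 and EGR matches were present in 14.3% each, which is 6 windows each, GGAAGT in 23.8%, GGGCGG in 47.6%, CACGTG in 7.14%, TATAAA in 4.76%, the CArG box in 2.38% and TGACGTCA in none. The 6 AP-1 windows include 2 overlapping windows of Tmem54 that hold the same match.

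**Figure D1:**
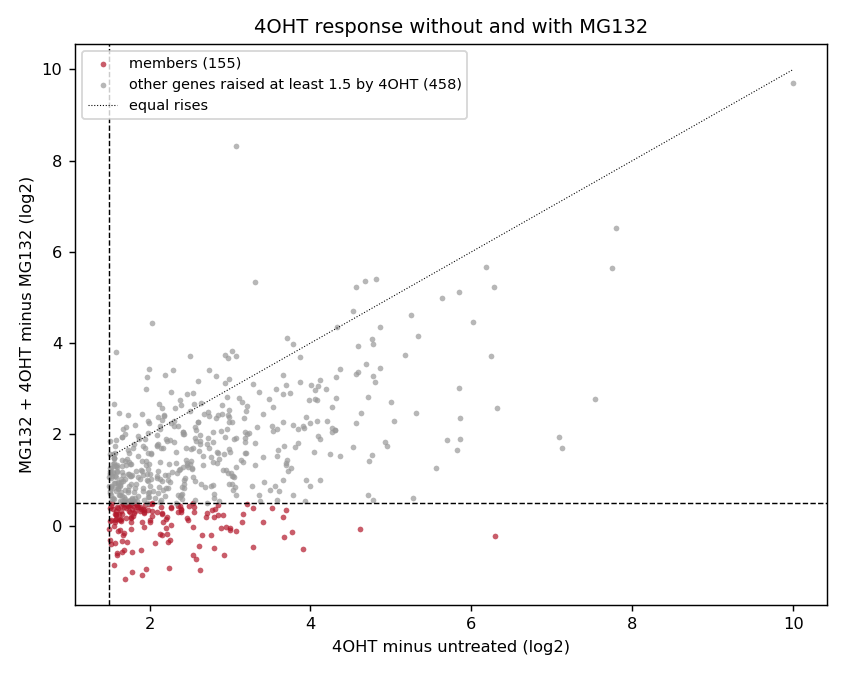
Each point is a gene that 4OHT put at least 1.5 above untreated cells. The x axis is 4OHT minus untreated and the y axis is MG132 with 4OHT minus MG132 (both log2); dashed lines are the thresholds, red points the 155 members and grey points the other 458 genes. Members run along the lower edge out to 6.30 on the x axis, and many grey points lie close above the line at 0.5.

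The 4OHT difference of members ranged between 1.502 and 6.30, with a median of 1.93, against a median of 2.498 for the other genes that 4OHT raised as far. Under MG132 the same compound gave members a median difference of 0.19, from -1.18 to 0.495. In the fit, 142 members were called higher with 4OHT, where 13% of all 26836 genes were called higher and 15.3% lower. The 3 arrays with 4OHT lay above all 3 untreated arrays in 144 members, as in 19.3% of all genes. Against MG132 alone, 12 members were called higher and 10 lower with both compounds, where 12.9% and 13.2% of all genes were. A 4OHT response that was smaller with MG132 than without it was called in 115 members and in 3.52% of all genes. All of these counts follow from the thresholds that made the set. They describe it and support nothing further.

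**Figure D2:**
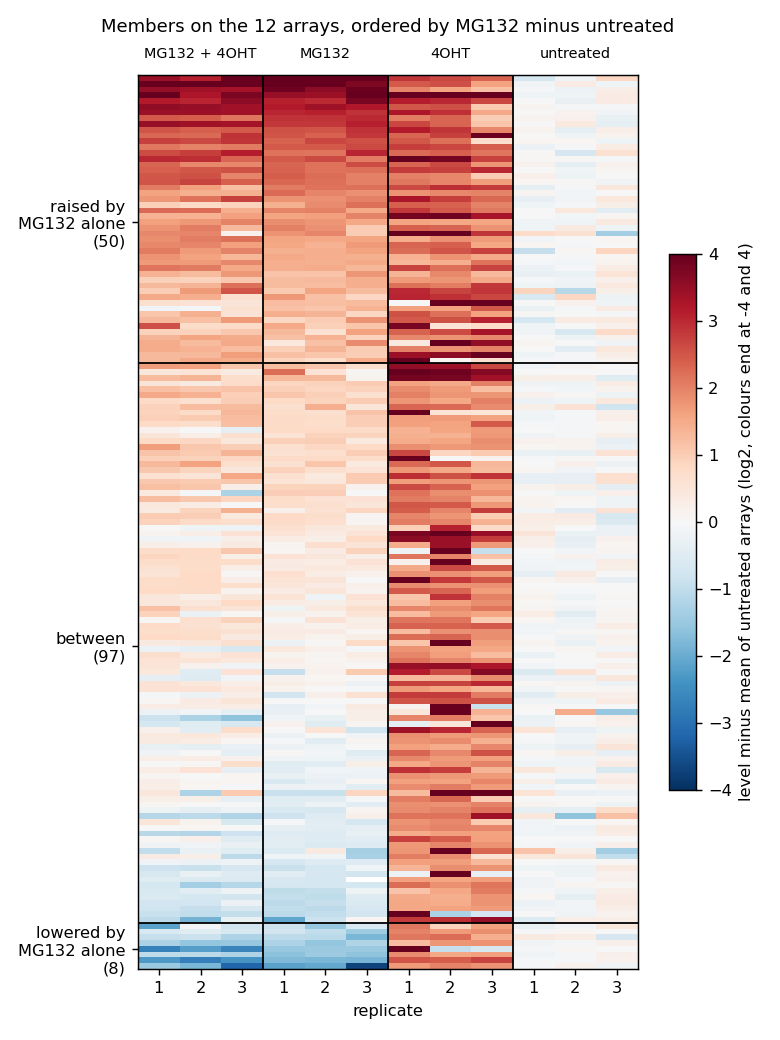
Rows are the 155 members and columns the 12 arrays, grouped from left to right as MG132 with 4OHT, MG132, 4OHT and untreated. Colour is the level minus the mean of the untreated arrays (log2, cut at -4 and 4), and rows are ordered by MG132 minus untreated, with 50, 97 and 8 members in the classes raised, between and lowered. The MG132 columns and the columns with both compounds are similar in colour within each block. The 4OHT columns are red, apart from rows in which a single 4OHT array is dark.

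The set divides by what MG132 did alone, a contrast that the rule did not use although its arrays did. A low untreated level and a high MG132 level both help a gene to qualify, so the balance of this contrast supports nothing. MG132 alone was at least 1 above untreated cells in 50 members, between -1 and 1 in 97, and at least 1 below in 8. The fit called 61 members higher and 16 lower with MG132, where 22.3% and 20.9% of all genes were called. The other genes raised by 4OHT had 181 higher and 59 lower of 458. Median differences were 0.51 in members, 0.40 in those other genes and 0.02 over all genes.

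**Figure D3:**
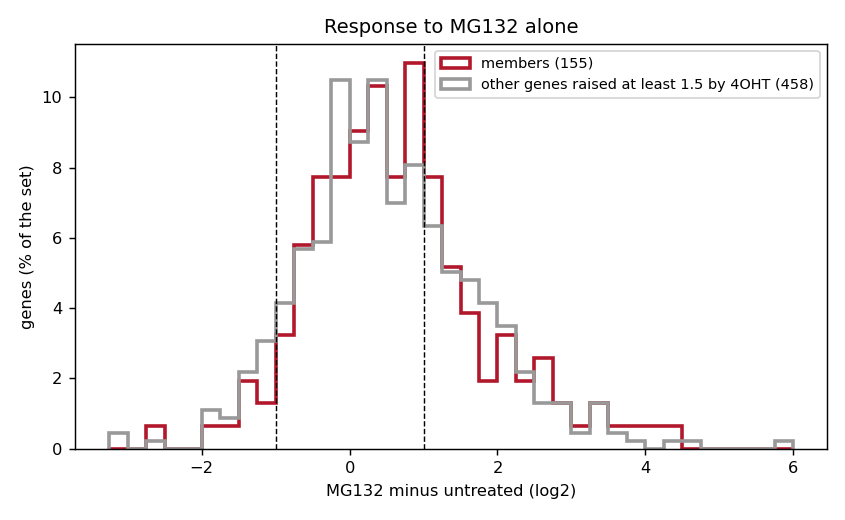
Histogram of MG132 minus untreated (log2) for the 155 members in red and the other 458 genes raised by 4OHT in grey, as a percentage of each set. Both sets reach from below -2 to above 4, and dashed lines at -1 and 1 bound the middle class.

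The first class was already high with MG132 alone. With both compounds these 50 members lay a median of 1.82 above untreated cells, and 16 of them lay above their level with 4OHT alone. Hic1, a zinc finger repressor of transcription, was at 0.62, 0.77 and 0.48 with both compounds, against 0.89, 0.87 and 0.26 with MG132. It was at -1.03, -0.90 and -1.88 with 4OHT, against -3.62, -3.16 and -3.63 in untreated cells. Every MG132 array therefore lay above every 4OHT array, and MG132 exceeded untreated cells by 4.15 ± 0.27 (SE, adjusted p = 3.01e-06, limma, n = 3 arrays each).

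Eya2, a transcriptional co-activator with phosphatase activity, had the same order of groups. It lay at -0.74, -0.84 and -0.90 with both compounds, against -0.34, -0.67 and -0.32 with MG132. The 4OHT arrays gave -2.30, -2.65 and -3.07, against -4.28, -4.47 and -3.98 in untreated cells. MG132 was higher by 3.80 ± 0.20 (SE, adjusted p = 9.37e-07).

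Adam8, a membrane-bound protease that sheds surface proteins, reached about one level under all treatments. It lay at 0.10, -0.04 and 0.50 with both compounds, at 0.03, -0.08 and 0.71 with MG132, at 0.08, -0.04 and -0.40 with 4OHT, and at -3.10, -3.38 and -2.75 in untreated cells. The 3 treated groups overlapped and none overlapped the untreated arrays; MG132 was higher by 3.29 ± 0.25 (SE, adjusted p = 6.65e-06). Bin1, a membrane-bending adaptor, was also high with either compound, but its 4OHT arrays all lay above its MG132 arrays, at 2.58, 2.38 and 2.44 with MG132 and at 3.00, 2.96 and 3.23 with 4OHT, against 0.25, 0.08 and 0.33 in untreated cells.

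Slco2b1, a transporter of organic anions, was well above background on every treated array and on no untreated array. Its levels were -3.22, -3.999 and -3.49 with both compounds, against -3.76, -3.83 and -2.91 with MG132, and -2.14, -3.01 and -2.71 with 4OHT. The 4OHT level was at least 5.85-fold above untreated cells and the MG132 level at least 3.18-fold (adjusted p = 1.24e-05 for MG132). For probes above background on no array of a group, such bounds take, array by array, the probe's own signal or the dimmest signal that counted as well above background, whichever is greater. The Slco2b1 promoter window printed above holds the adjoining ETS and AP-1 matches, while the other windows of this gene hold no match to the marked motifs.

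The remaining members with the highest MG132 values were of mixed function. Shisal1, a small membrane protein, was 4.47 ± 0.36 above untreated cells with MG132 (SE, adjusted p = 1.06e-05). It was also one of the 6 members lowest with both compounds against MG132, at -1.41, -1.75 and -0.88 against -0.48, -0.64 and -0.02. Tmem54 (3.25 ± 0.32), Arap2, a regulator of small GTPases (3.01 ± 0.35), and Plbd1, a phospholipase B-like protein (2.92 ± 0.29), were also higher with MG132 (adjusted p between 3.52e-05 and 8.50e-05).

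Signalling proteins were spread over the classes. Fgfr4, a fibroblast growth factor receptor, lay at 0.15, 0.12 and 0.74 with both compounds, against 0.39, 0.23 and 0.69 with MG132. It lay at 0.19, 0.60 and 1.80 with 4OHT, against -2.11, -2.30 and -2.004 in untreated cells. The treated groups overlapped one another, and MG132 was higher than untreated cells by 2.57 ± 0.35 (SE, adjusted p = 0.00025). A second Fgfr4 probe gave 3.35 for 4OHT, 2.96 for MG132 and -0.07 for 4OHT on top of MG132. Of the other 14 FGF ligands and receptors measured, 1 was called higher and 5 lower with 4OHT, against 13% and 15.3% of all genes. Members, which 4OHT raised by the rule, are left out of this and the like counts below, which tilts them towards lower.

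Pik3cd, the catalytic delta subunit of PI3-kinase, was not called with MG132 alone. It was at -0.95, -0.70 and -0.54 with both compounds, against -1.05, -1.04 and -1.01 with MG132, and at 1.49, 1.52 and 1.54 with 4OHT, against -1.17, -1.21 and -0.72 in untreated cells. Only the 4OHT arrays stood apart from the untreated ones, and the MG132 difference was 0.00 ± 0.14 (SE, adjusted p = 0.998). Each of its 2 other probes detected with 4OHT also met the rule. Rhoc, a small GTPase that acts on the actin cytoskeleton, was at 3.63, 3.66 and 3.49 with both compounds, against 3.38, 3.20 and 3.26 with MG132, and at 5.51, 5.75 and 5.57 with 4OHT, against 3.69, 3.68 and 3.98 in untreated cells. MG132 lowered it by 0.51 ± 0.11 (difference -0.51, adjusted p = 0.0045).

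Of 11 protein and lipid kinases in the set, 3 were called higher with MG132 alone and none lower, against 22.3% and 20.9% of all genes. These were Fgfr4, the TEC family tyrosine kinase Tec (2.53 ± 0.37 SE, adjusted p = 0.00036) and Map3k8, a kinase that activates MEK (at least 2.48-fold, adjusted p = 0.0015). Of 10 small GTPases and their regulators, 4 were called higher and 1, the GTPase Rhoc, lower, against the same shares of all genes. With so few members these counts do not set either group apart, and the groupings by function were drawn up after the values were known.

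Homeobox factors made up 10 members, none of them at least 1 higher with MG132 alone; 2 were called higher and 3 lower, close to the 22.3% and 20.9% of all genes. Gbx2, which acts downstream of LIF in naive stem cells and in patterning the midbrain and hindbrain, was at -1.30, -1.72 and -1.36 with both compounds, against -0.75, -0.80 and -0.85 with MG132. It was at 3.54, 3.43 and 3.70 with 4OHT, against 0.94, 0.92 and 1.17 in untreated cells. No arrays overlapped between any pair of groups. MG132 lay below untreated cells by 1.81 (difference -1.81 ± 0.13 SE, adjusted p = 5.31e-06), so its 4OHT and MG132 levels lay on opposite sides of the untreated one. Of the other 18 naive pluripotency genes, 3 were called higher and 10 lower with 4OHT, against 13% and 15.3% of all genes.

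Pax6, a regulator of eye and neural development, lay lowest with MG132 of all members relative to untreated cells. Its levels were -2.86, -3.22 and -4.56 with both compounds, against -3.54, -3.45 and -5.10 with MG132, and 0.30, 0.60 and 0.41 with 4OHT, against -1.44, -1.20 and -1.53 in untreated cells. MG132 gave -2.64 ± 0.48 (SE, adjusted p = 0.0014), with 2 of its 3 arrays well above background. Within the second slide alone the difference between both compounds and MG132 was 1.55 for Pax6, the largest of any member. Another Pax6 probe gave 1.68 for 4OHT, -2.36 for MG132 and 0.48 for 4OHT on top of MG132. Of the other 15 neural and Notch genes, 2 were called higher and 8 lower with 4OHT, against 13% and 15.3% of all genes.

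Hoxa13 and Meox1, factors of limb and somite development, were not detected on most arrays with MG132. Hoxa13 lay at -3.25, -3.53 and -3.74 with 4OHT and was well above background on no array of the other groups, which put 4OHT at least 3.16-fold above untreated cells. Meox1 lay at -1.80, -1.63 and -1.13 with 4OHT, against -5.14, -4.33 and -4.33 in untreated cells, where all arrays were above background. With both compounds none of its arrays was above background, and with MG132 1 was.

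Regulators of the primitive streak and of Wnt signalling were also present. T (Brachyury), the mesoderm factor, was at -3.75, -3.68 and -2.84 with both compounds, against -3.77, -3.80 and -3.57 with MG132, and at -2.83, -2.995 and -2.21 with 4OHT, against -5.22, -5.24 and -4.65 in untreated cells. MG132 alone was higher by 1.32 ± 0.28 (SE, adjusted p = 0.0034). Mesp1, which specifies cardiac mesoderm, was higher with MG132 by 1.495 ± 0.35 (SE, adjusted p = 0.0064) and higher with 4OHT by 2.49. Of the other 10 mesendoderm genes, 3 were called higher and 4 lower with 4OHT, against 13% and 15.3% of all genes.

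Sp5 and Lef1, a target and a DNA-binding partner of the Wnt pathway, were both members. Sp5 was at -1.12, -1.20 and -0.17 with both compounds, against -1.09, -1.32 and -0.66 with MG132, and at 1.25, 0.82 and 1.17 with 4OHT, against -2.04, -2.05 and -1.06 in untreated cells; its MG132 difference of 0.70 was not called (adjusted p = 0.12). Lef1 was at -0.96, -0.88 and -1.26 with both compounds, against -1.05, -1.09 and -1.85 with MG132, and at 2.08, 2.20 and 1.45 with 4OHT, against 0.35, 0.28 and -0.69 in untreated cells. MG132 gave Lef1 -1.31 ± 0.32 (SE, adjusted p = 0.0077), and whether its response differed from that of Sp5 was not tested. Wnt10a, a Wnt ligand, was higher with MG132 by 2.51 ± 0.14 (SE, adjusted p = 1.54e-06). Of the 14 other Wnt targets on the list, 5 were called higher and 3 lower with 4OHT, against 13% and 15.3% of all genes.

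Among the remaining transcription regulators, Arntl2, a clock-related partner of CLOCK, lay at -1.25, -1.27 and -1.001 with both compounds, against -1.08, -1.01 and -0.66 with MG132, and at 1.18, 1.25 and 0.64 with 4OHT, against -2.63, -2.75 and -2.57 in untreated cells. It combined an MG132 difference of 1.73 ± 0.17 (SE, adjusted p = 3.53e-05) with a 4OHT level above every MG132 array. Mdfi, an inhibitor of MyoD family factors, was at 4.17, 2.81 and 2.48 with 4OHT, against 0.11, 0.20 and -0.32 in untreated cells, and was not called with MG132 (0.35 ± 0.38 SE, adjusted p = 0.51). Zfp423, a zinc finger cofactor of SMAD and EBF proteins, was at 3.21, 3.21 and 3.31 with 4OHT, against 0.70, 0.69 and 1.16 in untreated cells. Dnmt3a, a DNA methyltransferase of the formative epiblast, was at 1.80, 1.74 and 1.83 with 4OHT, against -0.0005, 0.10 and 0.34 in untreated cells. On this probe MG132 gave Dnmt3a -0.68 ± 0.11 (SE, adjusted p = 0.0012) from 2 arrays, since the spot on the other array was an outlier, but a dimmer probe gave 0.39. Of the 14 other formative and primed epiblast genes, 6 were called higher and 1 lower with 4OHT, against 13% and 15.3% of all genes.

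**Figure D4:**
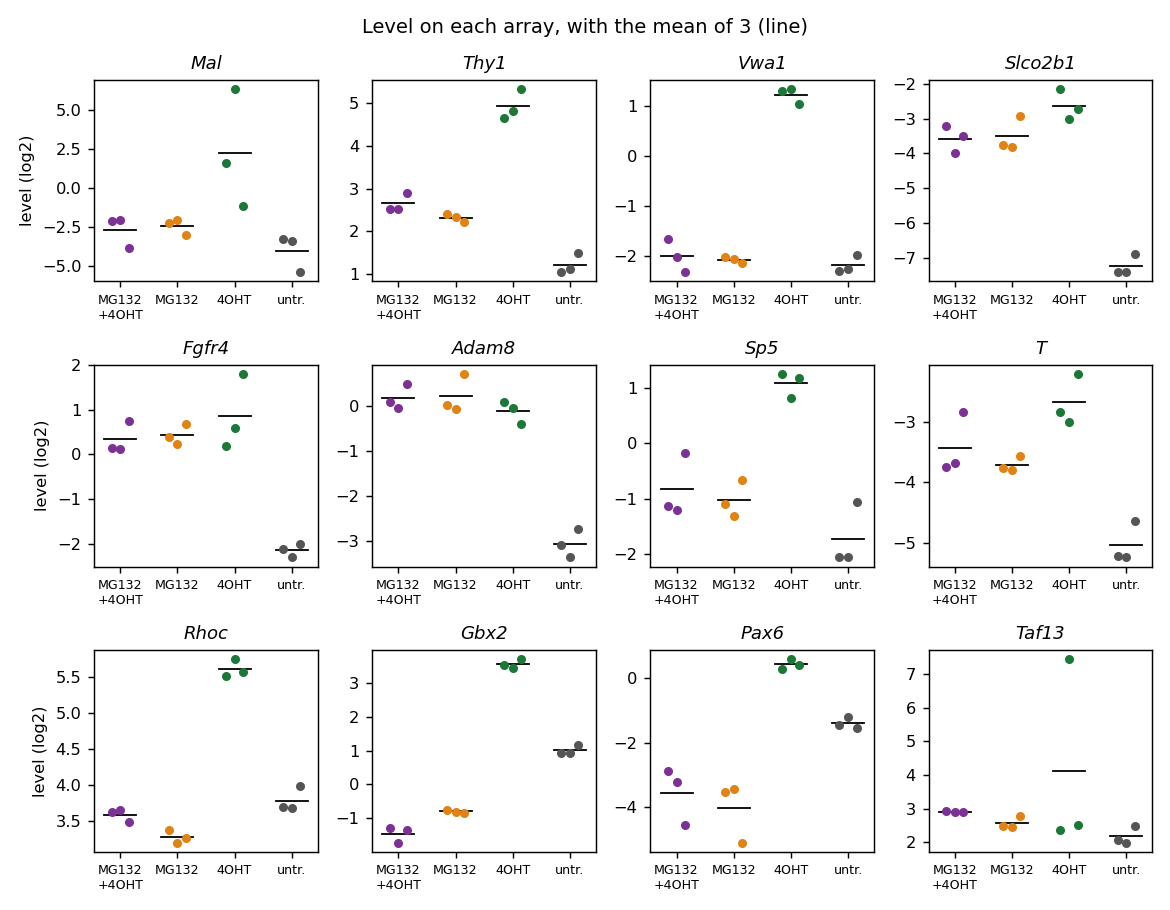
Level (log2) of 12 members on each array, with the groups from left to right as MG132 with 4OHT, MG132, 4OHT and untreated, and a line at the mean of 3. Vwa1, Thy1, Gbx2 and Rhoc have 4OHT arrays above all others, Adam8 and Fgfr4 have all treated groups at a similar level, and in Taf13 a single 4OHT array at 7.44 sets the mean.

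Cell surface and matrix proteins held several of the widest 4OHT differences. Thy1, a glycolipid-anchored surface protein of neurons, T cells and fibroblasts, was at 2.53, 2.52 and 2.90 with both compounds, against 2.40, 2.35 and 2.21 with MG132. It was at 4.64, 4.80 and 5.32 with 4OHT, against 1.05, 1.14 and 1.505 in untreated cells, a 12.9-fold difference. The MG132 level lay between the other 2, higher than untreated by 1.09 ± 0.19 (SE, adjusted p = 0.0011). Thy1 is also a fibroblast marker, and the summed linear level of the other 9 fibroblast genes measured was 154 to 170 with both compounds, 130 to 137 with MG132, 167 to 210 with 4OHT and 133 to 171 in untreated cells. Their part in the Thy1 values was not tested.

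Vwa1, a matrix protein of basement membranes and cartilage, lay near its untreated level on all arrays with MG132. It was at -1.66, -2.02 and -2.33 with both compounds, against -2.03, -2.06 and -2.15 with MG132, and at 1.29, 1.34 and 1.04 with 4OHT, against -2.31, -2.27 and -1.99 in untreated cells. The MG132 difference was 0.11 ± 0.17 (SE, adjusted p = 0.63). Mal, a lipid raft protein of vesicle transport, had the widest difference of any member, but its arrays disagreed. They gave 1.59, 6.34 and -1.17 with 4OHT, against -3.27, -3.45 and -5.43 in untreated cells, and -2.14, -2.10 and -3.86 with both compounds, against -2.25, -2.10 and -3.04 with MG132. The difference was 6.30 over all arrays and 4.25 without 4OHT replicate 2.

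Mall, a relative of Mal, had the lowest level with both compounds relative to MG132, at -3.35, -3.75 and -4.12 against -2.66, -2.78 and -2.24. Its 4OHT arrays gave -0.55, -0.45 and -1.37, against -2.75, -2.51 and -2.21 in untreated cells. Tnfrsf25, a death receptor of the TNF family, followed with 0.17, 0.22 and 0.87 with both compounds, against 1.45, 1.40 and 1.65 with MG132. In the ATP-gated channel P2rx5 the arrays with both compounds also lay below all MG132 arrays, at -0.11, -0.27 and -0.14 against 0.33, 0.82 and 1.11. For these genes the 4OHT difference changed sign under MG132. Tmem132d, the last of the 6 lowest beside 3830406C13Rik, overlapped between the 2 groups.

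Some members were not detected with MG132. In 8 of them (Hoxa13, Ctxn3, Gm33612, 6430503K07Rik, Prkcq, Pik3c2g, Fgr and Myrf) no array with MG132, alone or with 4OHT, was well above background, so their second difference compares background with background. Of these, Myrf was well above background on all 3 untreated arrays. The tyrosine kinase Fgr is an example, at -3.48, -3.47 and -2.25 with 4OHT. In 12 members no untreated array was above background, and the 4OHT level was at least 2.71-fold (Prkcq) to 5.85-fold (Slco2b1) higher. Ctxn3 was at least 3.28-fold higher and Mmp9, a secreted gelatinase, at least 3.77-fold.

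The other members with a wide 4OHT difference were mixed in function. Smpd3, which makes ceramide, differed by 3.66, the inhibitory synapse protein Insyn2a by 3.52, Mfap3l by 3.29, the splicing factor Rbm20 by 3.21 and Myrfl by 3.15. Insyn2a was higher with MG132 by 2.38 ± 0.32 (SE, adjusted p = 0.00022). The keratin Krt77 differed by 3.28, yet its 4OHT arrays ran from -4.21 to -0.94, against -5.78 to -4.92 in untreated cells. The 8 members at least 1 lower with MG132 alone were, besides Gbx2, Pax6 and Lef1, the proton-sensing receptor Gpr4 (-1.57 ± 0.13 SE, adjusted p = 1.16e-05), the endothelial surface protein Ecscr (-1.33 ± 0.17, adjusted p = 0.00016), the adhesion receptor Adgrl2 (-1.04 ± 0.16, adjusted p = 0.0005) and, not called, 3830406C13Rik and the myelin regulator Myrf.

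In some members the mean with 4OHT rested on a single array. The 4OHT and untreated arrays overlapped in 11 members: Fes, Grk5, Nmur1, Slc19a3, Tspo2, Taf13, St8sia1, 3830406C13Rik, Rn28s1, Eid2b and Rn7s1. All of these but Fes left the set when some single 4OHT array was left out, while Fes stayed whichever array was left out. Grk5, a kinase of G protein coupled receptors, was at -1.66, 6.54 and -1.75 with 4OHT, against -1.42, -1.63 and -1.26 in untreated cells. Taf13, a subunit of the general factor TFIID, was at 2.35, 7.44 and 2.53, against 2.07, 1.99 and 2.47. In both, replicate 2 alone lay high and the other arrays were at the untreated level.

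The probe for 3830406C13Rik gave 5.98, -1.87 and -1.60 with 4OHT, against -0.99, -0.89 and -0.96 in untreated cells, and its difference of 1.79 became -0.79 without replicate 1. The fit shares its spread over all groups, so that array also widens the error of the MG132 difference of 3830406C13Rik, which was not called. Rn28s1, the probe for 28S ribosomal RNA, gave 10.19, 5.99 and 6.57 with 4OHT, against 5.84, 5.82 and 6.03 in untreated cells. Rn7s1, a signal recognition particle RNA, gave 7.41, 2.73 and 2.85, against 2.66, 2.76 and 2.70. In both of these structural RNAs replicate 1 stood apart. Of all 155 members, 37 left the set when some single 4OHT array was left out, and 82 stayed when any 1 of the 12 arrays was left out.

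Thresholds split a continuous range of values. Just inside the first lay Cst6 (1.502), Nkx2-3 (1.505) and Plvap (1.507), and just outside it Camk2a (1.499), Inafm2 (1.496) and Ccdc28a (1.494). Just inside the second lay Bach2 (0.495), Hsf5 (0.492) and Ehbp1l1 (0.490), and just outside it Sh2b3 (0.501), Bbs2 (0.502) and Tmem59l (0.503). Hsf5, a heat shock factor family member, was higher with MG132 by 2.91 ± 0.34 (SE, adjusted p = 9.31e-05). Ehbp1l1, by contrast, was at 0.55, 0.57 and 0.46 with both compounds, against -0.08, 0.18 and 0.00 with MG132, so its arrays did not overlap although it counted as lost. The arrays with both compounds lay above all MG132 arrays in 36 members, Thy1 and Iffo2 among them, where 26.3% of all genes did so, and below all of them in 23, where 23.9% did.

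The second difference was measured across slides for MG132 replicates 1 and 2. Against replicate 3, the only MG132 array on the slide of the arrays with both compounds, 124 of 154 members stayed at or below 0.5, with a median of 0.15 and 2 members at 1 or more (Pax6 and Esrp1). Against replicates 1 and 2, 138 members did. With 1 MG132 array on that slide, the within-slide value has no test. Dnmt3a had no value there.

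**Figure D5:**
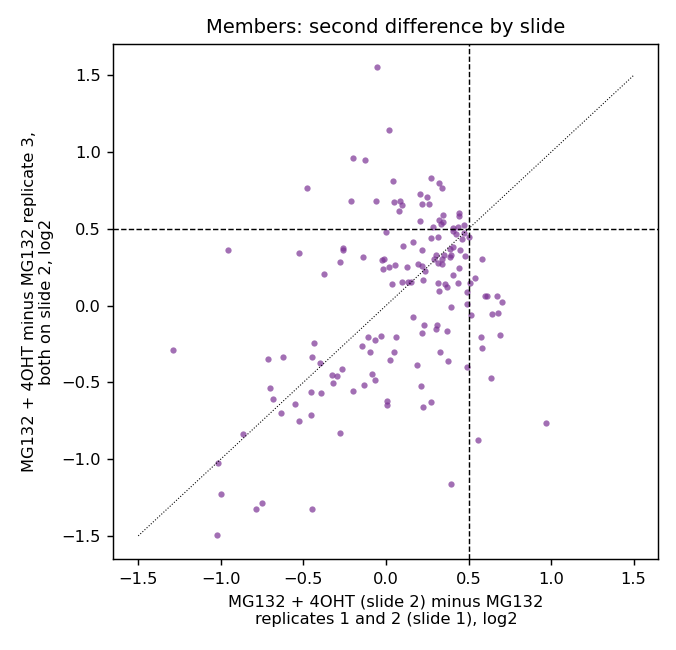
Each point is a member, with MG132 with 4OHT minus MG132 replicates 1 and 2 on the x axis (across slides) and minus MG132 replicate 3 on the y axis (within the second slide), both log2. Dashed lines mark the threshold of 0.5 and the dotted line equal values; on the y axis 124 members lie at or below the threshold and Pax6 lies highest at 1.55.

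Other probes of the same genes offered a further reading. A second probe existed for 74 members, and 62 such probes in 53 members were detected on all 4OHT arrays. Of these 62, 45 also differed by at least 1.5 with 4OHT, 48 stayed at or below 0.5 under MG132, and 34 probes in 30 members met both. Their medians were 1.79 and 0.31. A total of 5 detected probes showed at most 0.5 with 4OHT.

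A set of 23 members met the rule without any single array, under normexp background correction, quantile normalization, median scaling and the mean over probes, and in the comparison within the second slide. Other thresholds, the stricter background filter and the slide block were not part of that count. These were Mal, Thy1, Arntl2, Vwa1, Fgfr4, Adam8, Bin1, Sp5, Pik3cd, Gbx2, Zfp423, P2rx5, Phactr1, Tead3, 9930012K11Rik, Pdlim2, Iffo2, Tnfrsf25, Pde2a, Rhoc, Rapgef3, Agpat4 and Pitpnc1. They include surface proteins, transcription regulators, small GTPase signalling proteins and proteins of lipid metabolism. Iffo2, an intermediate filament family protein, shows how tight such a member could be, at 1.68, 1.74 and 1.68 with both compounds, against 1.26, 1.21 and 1.26 with MG132, and at 3.55, 3.64 and 3.63 with 4OHT, against 1.56, 1.41 and 2.01 in untreated cells.

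The rule did not compare replicates with one another. A single 4OHT array could still lift a group mean over the threshold, so calls between replicates are not independent of the choice of members. Replicate 3 differed from replicates 1 and 2 across the groups in 15 members that were higher and 16 that were lower, where 5.13% of all genes were called higher and 4.77% lower. These counts were not stable: 7 to 10 members were called higher without any single untreated, MG132 or MG132 with 4OHT array, and 12 to 14 without a 4OHT array. The lower calls numbered 7 without MG132 with 4OHT replicate 3 and 10 without replicate 2 of that group, and no filter on background gave 5 higher and 8 lower. Esrp1, an epithelial splicing regulator, was lowest on replicate 3 of every group, at -1.78 with both compounds, -2.03 with MG132, -0.12 with 4OHT and -1.70 in untreated cells, and differed by -1.32 (adjusted p = 4.73e-05). Lef1 (-0.70, adjusted p = 0.0022) and Smpd3 (-0.75, adjusted p = 0.0023) were also lower, while T (0.59, adjusted p = 0.0057) and Ceacam1 (0.44, adjusted p = 0.0039) were higher. Its neighbour and close relative Ceacam2 was higher by 0.54 (adjusted p = 0.014); cross-hybridisation between them was not tested.

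None of the 55 measured genes of the ERK immediate-early and ERK feedback lists was a member. Of these genes, 23 differed by at least 1.5 with 4OHT, and under MG132 their difference was a median of 3.25 and no lower than 0.86, with 22 called higher. Among all 613 genes that 4OHT raised as far, 155 were members. Of the other 458, 395 were called higher with both compounds against MG132, as were 12.9% of all genes. Since the 23 lie outside the set, their calls follow in part from the rule, and the 2 shares were not compared by a test. Egr1, an immediate-early zinc finger factor, was at 7.10, 7.07 and 6.82 with both compounds, against -1.11, -1.07 and -1.81 with MG132, and at 5.03, 4.78 and 4.41 with 4OHT, against 1.51, 1.69 and 1.82 in untreated cells. Spry4, a feedback inhibitor of the pathway, was higher by 5.34 ± 0.21 under MG132 and by 3.30 ± 0.21 without it (SE, adjusted p = 2.56e-06 and 3.17e-06). Phlda1 was higher by 4.15 ± 0.26 under MG132 and 5.34 ± 0.26 without it, and Fosl1, an AP-1 subunit, by 2.70 ± 0.34 under MG132 and 4.99 ± 0.34 without it. These rises start from unlike levels, since MG132 minus untreated was -2.51 for Spry4, 1.67 for Phlda1 and 4.28 for Fosl1. Egr3, Fosl2 and Dusp5 were above background on all arrays with both compounds and on none with MG132.

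All 15 general pluripotency genes measured were called lower with MG132 alone than in untreated cells, with a median difference of -0.95. Over all genes, 20.9% were called lower in that comparison. With 4OHT against untreated cells, 5 of these 15 genes were called higher and 0 lower, against 13% and 15.3% of all genes. Nanog was lower with both compounds than with MG132 (-1.46 ± 0.14 SE, adjusted p = 9.42e-05) and lower with 4OHT than in untreated cells (-2.45 ± 0.14, adjusted p = 1.48e-06). Pou5f1 differed by -0.005 ± 0.15 with 4OHT (adjusted p = 0.99), and Sox2 by 0.25 ± 0.10 (adjusted p = 0.085). Hspa1a, a heat shock chaperone, was higher with MG132 by 4.67 ± 0.15 (adjusted p = 9.55e-08). Members lay on all autosomes, with 17 on chromosome 7 and 16 on chromosome 2, counts that were not compared with those of all genes. Of the 155, 147 were protein coding. So were 12820 of the 13462 genes with a symbol that were well above background on all 4OHT arrays.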

How the data were processed

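Per the labels' protocols, 100 ng of total RNA from each sample went, labelled with Cy3, onto an Agilent mouse array. The scanner output that the authors deposited for each array holds processed intensity from Feature Extraction 11.0.1.1, background-subtracted and not scaled between arrays, per the file headers. Their series-wide values held the same intensity. From the deposited intensity, log2 values minus each array's 75th percentile over non-control probes were computed. Control spots (3671 of 62976) and outlier spots (71 to 229 per array) were left out, and spots of one probe were averaged. Symbols came from RefSeq (GRCm38.p6) through accessions, for 58.3% of 56605 probes. Each gene kept its brightest probe among those that were well above background throughout 1 or more groups (26836 genes), and the rule was then applied to that probe.

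limma 3.58.1 in R 4.3.3 gave each of the 4 groups a coefficient in one fit to the 12 arrays, leaving 8 residual degrees of freedom, with Benjamini-Hochberg adjustment over all genes and a threshold of 0.05; replicate 3 was an added coefficient in a separate fit. The fit was tested on simulated data. An exact test of 3 against 3 arrays cannot go below p = 0.1. Replicates are those of the titles, and the p-values rest on the spread among these arrays, whose number limits the precision. Tables were read in R through jsonlite 2.0.0 and version 1.17.8 of data.table. Figures were made in matplotlib 3.10.9 (Python 3.11.15, numpy 2.4.6).

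The members, gene lists, motifs and thresholds were chosen with earlier results of these data known. Named members were the 15 widest 4OHT differences, the 8 highest and 8 lowest MG132 differences, the 6 lowest differences between both compounds and MG132, members of a gene list, and the 3 genes on each side of each threshold. Of the ERK lists, the 5 widest non-members were named, and Egr1, Spry4, Nanog, Pou5f1, Sox2 and Hspa1a were fixed. Members named otherwise, and the groups by function, were chosen after their values were seen. Alternatives were normexp background correction, quantile and median scaling, filters, probe averaging, thresholds, slide and replicate blocks and leaving out each array. Normexp ran with an offset of 50 on median signals.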

Additional observations from a re-analysis of the deposited data

Results flagged for a closer look

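The difference itself between the 4OHT response with MG132 and the 4OHT response without it was called for 10 of the named genes outside the set, by the interaction contrast of the limma fit. For Egr1 it was 5.26 ± 0.30 (SE, adjusted p = 4.43e-05), for Spry4 2.04 ± 0.30 (adjusted p = 0.0041), for Hspa1a 1.60 ± 0.21 (adjusted p = 0.0025) and for Nanog 0.98 ± 0.19 (adjusted p = 0.015). Positive values mean a higher response with MG132, and for Nanog a smaller fall. It was negative for Fosl1 at -2.30 ± 0.48 (adjusted p = 0.019) and for Sox2 at -0.60 ± 0.14 (adjusted p = 0.029). Fosl1 was named for its wide 4OHT difference, which enters this contrast with a minus sign. Its negative value therefore follows in part from that choice. The other 4 genes were named for lying just outside a threshold of the rule, so their negative values follow in part from that choice. They were Tmem59l at -2.21, Bbs2 at -1.83, Sh2b3 at -1.46 and Inafm2 at -1.29 (adjusted p of 0.0028, 0.00042, 0.00064 and 0.045 in that order). Groups of 3 arrays were too small for a search for outlying arrays.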

How the results depend on the processing

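Membership moved most with the thresholds and with normexp background correction on median signals, which gave 73 members, 48 of them shared with the 155; all 107 that left missed the first threshold only, and their median 4OHT level was -1.34, against 1.86 for those that stayed. A first threshold of 2 left 72 and a second threshold of 0 left 52. The other settings gave 117 to 188 members, the highest when the rule was applied to every probe first. A similar count did not mean the same genes. Slide as a fixed block gave 157 members, 125 of them shared with the 155, and differences within slides gave 156, with 124 shared. The percentile over spots, added after seeing the data, gave 161. Leaving out an array gave 145 (without MG132 with 4OHT replicate 3) to 184 (without 4OHT replicate 3). With each array left out, MG132 calls among members ran from 55 to 68 higher and 13 to 21 lower, and replicate 3 calls from 7 to 14 higher and 7 to 18 lower. Higher calls were fewest (7) without untreated replicate 3 or MG132 with 4OHT replicate 2 or 3, and lower calls (7) without MG132 with 4OHT replicate 3. Other settings gave 7 higher with median scaling, 5 higher and 8 lower with no filter, and 9 higher with slide as a block. The replicate block gave 67 members higher and 19 lower with MG132, or 66 and 17 with slide as well. A fit to the untreated and MG132 arrays only, which leaves out the spread of the 4OHT arrays, gave 68 higher and 18 lower. Same-numbered deviations correlated at -0.06 to 0.16 for replicate 1, 0.07 to 0.15 for replicate 2 and 0.12 to 0.41 for replicate 3. By the rule that every pair exceed 0.1, replicate numbers as a whole did not pair the arrays, although replicate 3 alone met it. The main fit has no term for replicates. Of 12 arrays, 4 correlated best with their own number in another group. Among named genes, Dnmt3a turned to 0.39 with MG132 when only probes above background on all 12 arrays were kept, which brings in another probe. With each array left out, the 4OHT difference ran from -0.79 (without 4OHT replicate 1) to 3.14 for 3830406C13Rik, and from -0.68 (without 4OHT replicate 2) to 2.64 for Ccdc28a. The call of Smpd3 with MG132 was lost with most arrays left out and that of Nkx2-3 under normexp, quantile and median scaling; T and Rbm20 lost theirs under normexp. The causes were not tested. Signal over background limits the dim members.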

Other observations

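Several members are enzymes of glycosylation or lipid handling, and those named here were picked out after their values were seen. The fucosyltransferase Fut4 was above background on no untreated array and was at least 4.53-fold higher with 4OHT and at least 2.44-fold higher with MG132 (adjusted p = 0.00067). The sialyltransferase St8sia3 was higher with MG132 by 1.82 (adjusted p = 0.00071) and the mucin-type glycosyltransferase Gcnt3 by 1.18 (adjusted p = 0.026). The sialyltransferase St8sia1 was at 5.94, -3.05 and -2.47 with 4OHT, against -1.80, -1.92 and -1.64 in untreated cells, and its MG132 difference of -0.91 was not called (adjusted p = 0.73). Since the fit shares its spread over all 4 groups, the outlying 4OHT array widens the error of that MG132 difference. A second St8sia1 probe, detected on all 3 arrays with 4OHT, gave -2.25 for 4OHT and -1.10 for 4OHT on top of MG132. Agpat4, which makes phosphatidic acid, was at 4.36, 4.33 and 4.47 with both compounds, against 4.67, 4.70 and 4.85 with MG132, and at 5.11, 5.16 and 4.92 with 4OHT, against 3.33, 3.27 and 3.60 in untreated cells. Its arrays with both compounds lay below all MG132 arrays. Pitpnc1, a phosphatidylinositol transfer protein, was at 3.98, 3.81 and 3.74 with 4OHT, against 2.17, 2.30 and 2.09 in untreated cells, and was not called with MG132 alone (0.18, adjusted p = 0.36).

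Ehd4, an endocytic ATPase, and Ppp2r5a, a regulatory subunit of phosphatase PP2A, differed by 1.59 and 1.84 with 4OHT. With MG132 alone, Ehd4 was higher by 0.91 (adjusted p = 0.00094) and Ppp2r5a by 0.34 (adjusted p = 0.011).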
